A study of Mus musculus with 14 samples.

Results

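The genes described here are Tnfsf11, which encodes RANKL, Tnfrsf11b, which encodes osteoprotegerin, and the osteogenic genes Runx2, Sp7, Alpl, Spp1, Dmp1 and Phex. These 8 genes were listed as bone lineage genes, and of the probe sets annotated to a gene alone, the brightest by its mean on the 14 arrays represented it. A measured value was found for 6 of the 8, out of 18193 genes measured on the arrays; Runx2 and Spp1 were not analysed here. The list was selected on earlier results of these data, and Tnfsf11 was chosen by its measured values: higher after differentiation, and lower in knockdown cells at day 7. All its levels and differences are therefore given as a description, without a test.

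The cells were 3T3-L1, mouse fibroblasts that can be induced with hormones to become fat cells, labelled as preadipocytes of adipose tissue. All carried a lentivirus, with a scrambled sequence in control cells and a siRNA sequence against TP53INP2 in knockdown cells. RNA was taken 2 days after confluence (day 0; 3 control and 3 knockdown arrays) and at day 7 in differentiation medium (4 control and 4 knockdown arrays). The labels do not say whether replicates are separate cultures, so a p-value covers only the spread among these arrays, and that spread may be technical. Because the viruses differ, any lasting difference between the transduced populations and the knockdown itself cannot be told apart. Expression was read on 3' arrays as deposited log2 values, on which 1 unit is a doubling of signal; the files hold no detection calls, so no gene was called absent, and changes of dim probe sets are understated on this scale.

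RANKL is a membrane-bound and shed ligand of the TNF family that drives osteoclast formation through its receptor RANK, while osteoprotegerin is a soluble decoy receptor that binds RANKL and blocks it. Cells of the mesenchymal lineage, including osteoblasts, osteocytes and bone marrow adipocyte precursors, are known sources of RANKL. The other genes mark bone formation at successive levels. SP7 (osterix) is a transcription factor of the osteoblast lineage, ALPL is the tissue-nonspecific alkaline phosphatase that supplies phosphate for mineral, and DMP1 and PHEX are an acidic matrix protein and a membrane endopeptidase of mature osteoblasts and osteocytes that restrain FGF23 and so act on phosphate balance.

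Trp53inp2, the targeted gene, did not overlap between knockdown and control arrays of a day, and was lower, at 44.4% of control at day 0 (log2 difference -1.17 ± 0.15, SE; limma adjusted p = 0.00205) and 33.7% at day 7 (-1.57 ± 0.13; adjusted p = 0.000111). Arrays had medians between 5.44 and 5.57, and values ran from 1.13 to 14.37. Replicates 1 and 2 lay close together at day 7: over the brighter genes the SD of their difference was 0.097 in control and 0.132 in knockdown cells, against 0.24 to 0.476 for the other pairs of day 7 arrays. They were counted as separate arrays. Averaging them took away many calls, which is given for some of the results and was not run for the other probe sets of a gene. The fat cell label was borne out at day 7: 8 of 10 measured adipocyte markers rose in control cells, where 22.9% of all genes were called. The other 2 did not lie above day 0. Adipoq, which encodes adiponectin, was up by 5.87 ± 1.05 on the log2 scale (limma adjusted p = 0.00161). At day 0, 5 of the 8 measured preadipocyte markers lay above the control mean in knockdown cells. In limma 0 of the 8 passed, against 1.80% of all genes (0 at an unadjusted p under 0.05, against 15.4%). The 10 measured macrophage markers had a mean of 4.32 to 5.06 per array over all groups and the 7 lymphocyte markers 3.43 to 3.82. These means lay below the array medians, which cover all probe sets, and below the median gene level of 7.14. Single macrophage markers read higher: Csf1r was at least 7.27, Cd14 at least 7.46 and Cd68 at least 5.99 on every array.

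The RefSeq promoters (build GRCm38.p6, 250 bases before to 50 after the annotated start, 5′ to 3′ on the gene's strand) of the 3 genes whose values varied most are printed below. Promoter entries were found for Tnfsf11, Alpl, Dmp1 and Phex among the measured genes, and not for Sp7 and Tnfrsf11b. Capitals mark matches to a few motifs, each searched on both strands. The RUNX core was searched as ACCACA. The core of the promoter element bound by TBP was searched as TATAAA. Sites of the C/EBP type were searched as TTGCNNAA. The PPAR direct repeat, the vitamin D receptor direct repeat and the glucocorticoid receptor palindrome were also searched, and no marked match overlaps another. The sequence for Tnfsf11 lies on the minus strand at chr14:78307994-78308293, the 2 Dmp1 starts on the plus strand at chr5:104197325-104197624 and chr5:104202367-104202666, and that for Phex on the minus strand at chrX:157415237-157415536.
Tnfsf11: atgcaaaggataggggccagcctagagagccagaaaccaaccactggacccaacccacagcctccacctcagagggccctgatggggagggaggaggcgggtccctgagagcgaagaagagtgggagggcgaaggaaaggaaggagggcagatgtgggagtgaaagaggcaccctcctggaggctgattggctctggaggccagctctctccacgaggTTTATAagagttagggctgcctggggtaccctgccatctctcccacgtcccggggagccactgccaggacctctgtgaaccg
Dmp1 start 1: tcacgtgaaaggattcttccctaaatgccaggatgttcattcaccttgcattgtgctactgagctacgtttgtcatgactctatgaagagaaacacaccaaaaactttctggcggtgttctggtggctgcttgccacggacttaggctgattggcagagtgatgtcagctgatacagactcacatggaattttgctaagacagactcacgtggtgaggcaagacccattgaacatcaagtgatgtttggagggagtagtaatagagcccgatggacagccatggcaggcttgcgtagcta
Dmp1 start 2: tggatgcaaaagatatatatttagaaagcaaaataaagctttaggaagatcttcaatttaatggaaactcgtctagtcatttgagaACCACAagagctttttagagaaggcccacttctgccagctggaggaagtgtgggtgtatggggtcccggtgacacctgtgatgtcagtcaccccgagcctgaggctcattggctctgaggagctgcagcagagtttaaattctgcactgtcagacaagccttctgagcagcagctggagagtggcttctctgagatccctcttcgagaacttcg
Phex: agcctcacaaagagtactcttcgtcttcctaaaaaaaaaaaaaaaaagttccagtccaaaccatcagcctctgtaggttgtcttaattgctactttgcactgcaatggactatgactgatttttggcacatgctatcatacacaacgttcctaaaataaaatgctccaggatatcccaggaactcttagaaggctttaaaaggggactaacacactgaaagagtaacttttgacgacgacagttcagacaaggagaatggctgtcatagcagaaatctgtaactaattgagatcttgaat

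The Tnfsf11 promoter held TTTATA, which reads TATAAA on the other strand, beginning 32 bases before the start. That motif was present in 13.6% of the 32851 promoters of the table. The 2 Dmp1 promoters differed: the window at start 2 held ACCACA, beginning 164 bases before it, and the window at start 1 held none of the motifs searched, as did the Phex window. ACCACA was found in 16.8% of all promoters, TTGCNNAA in 10.8%, the PPAR repeat in 0.0396%, the vitamin D receptor repeat in 0.00609% and the glucocorticoid receptor palindrome in 0.00913%. A match describes these letters only, and no match says only that the letters are not in the window.

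Tnfsf11 was higher at day 7 than at day 0 in both kinds of cell and lower in knockdown than in control cells on both days. On its brighter probe set (1419083_at), control arrays at day 0 read 3.93, 3.73 and 5.74, and knockdown arrays 3.18, 3.34 and 3.22. At day 7, control arrays read 7.33, 7.39, 8.55 and 6.53, and knockdown arrays 4.35, 5.22, 5.05 and 4.35. Every day 7 control array thus lay above every other array of the series, and the day 0 knockdown arrays were the lowest and the most alike. The day 7 knockdown arrays lay within the range of the day 0 controls, where replicate 3 stood well above replicates 1 and 2.

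The Tnfsf11 group means at day 0 were 4.46 ± 1.11 (SD, n = 3) for control and 3.25 ± 0.08 (SD, n = 3) for knockdown cells. At day 7 they were 7.45 ± 0.83 (SD, n = 4) for control and 4.74 ± 0.46 (SD, n = 4) for knockdown cells. In order of level, the day 0 control and day 7 knockdown groups were neighbours whose arrays overlapped, while the other neighbouring groups did not overlap. The day 7 difference between knockdown and control cells was -2.71 ± 0.46 (SE), or 15.3% of the control signal. Pair by pair, it was -2.99, -2.17, -3.50 and -2.18 in replicates 1 to 4, and leaving out any 1 array kept it between -3.02 and -2.34. Differentiation was accompanied by a 7.93-fold higher signal in control cells (2.99 ± 0.49, SE, on the log2 scale) and by a difference of 1.49 ± 0.49 in knockdown cells. The knockdown difference was larger at day 7 than at day 0 by 1.49 ± 0.70 in size. The day 0 knockdown arrays, at 3.18 to 3.34, lay below the 25th percentile of gene levels (3.84), so the day 0 difference may be understated. In a bulk sample, fewer cells that express a gene and less RNA per cell cannot be told apart.

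At day 0, whose arrays also entered the choice of the gene through its rise with differentiation, the knockdown difference of Tnfsf11 was -1.22 ± 0.53 (SE; 43.1% of control), with no overlap between the groups. Replicate 3 carried most of it: the differences within replicates 1, 2 and 3 were -0.74, -0.39 and -2.52, and leaving out 1 array at a time gave -1.58 to -0.58. The other Tnfsf11 probe set (1451944_a_at) showed none of this pattern, with group means between 2.73 and 2.86 and a day 7 difference of 0.13 ± 0.12. That probe set is dim, near the 10th percentile of gene levels (2.76), so a change may not be visible on it. With the mean of both probe sets in place of the brighter one, the day 7 difference was -1.29 and the rise in control cells 1.46.

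**Figure D1:**
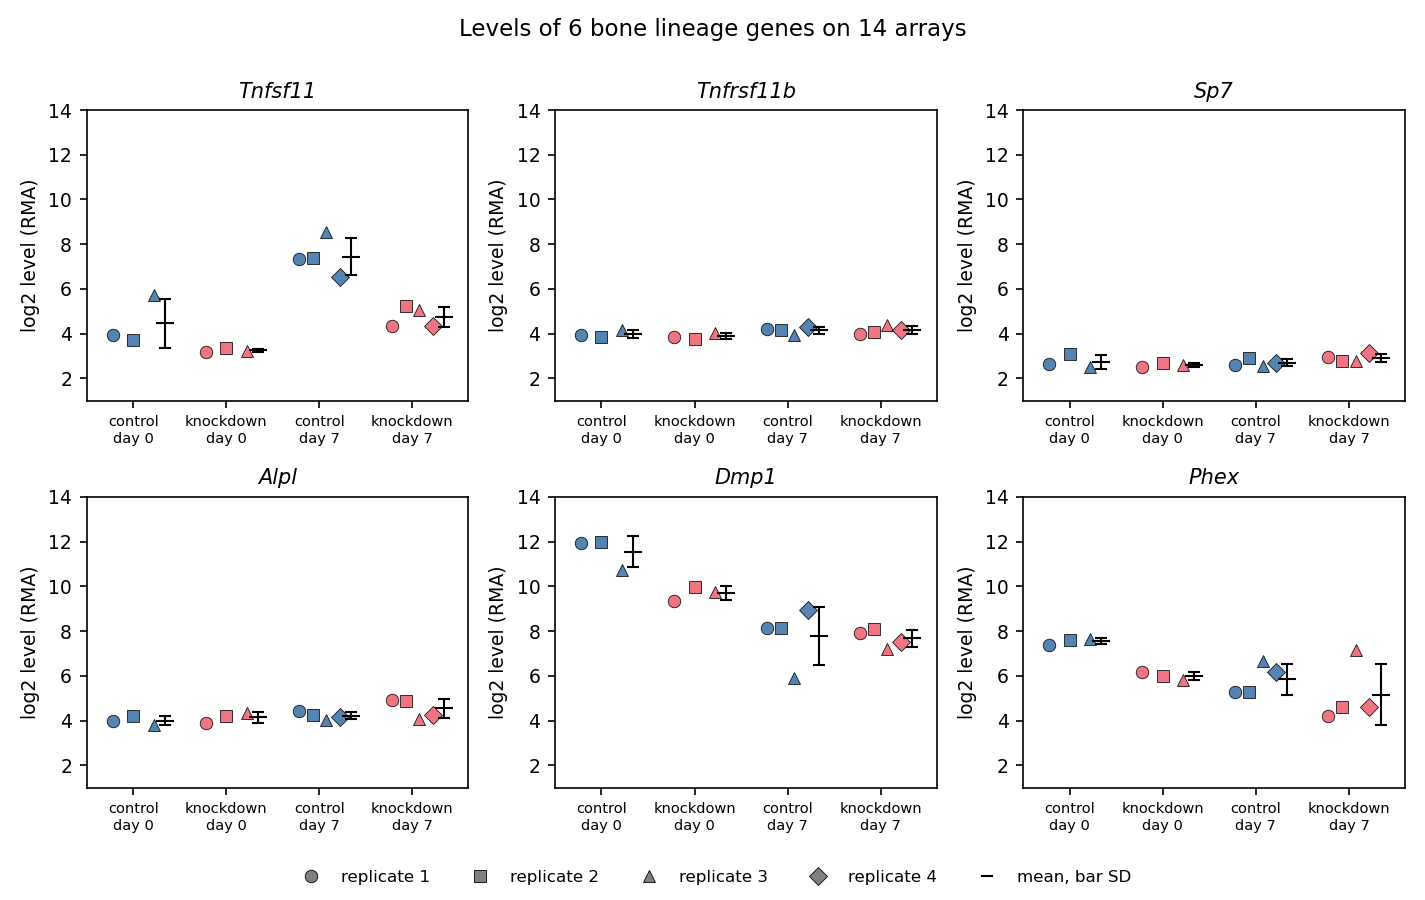
Log2 level (y axis, RMA values) of the 6 measured bone lineage genes on each of the 14 arrays by group (x axis); symbols mark replicate numbers, blue is control, red is knockdown, and the black bar is the group mean with its SD. Tnfsf11 reads 6.53 to 8.55 in day 7 controls and at most 5.74 elsewhere, Tnfrsf11b, Sp7 and Alpl stay within narrow bands, and Dmp1 and Phex are highest in day 0 controls.

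Tnfrsf11b, the decoy receptor gene, moved little. Control arrays read 3.94, 3.86 and 4.18 at day 0 and 4.19, 4.16, 3.93 and 4.29 at day 7. Knockdown arrays read 3.87, 3.77 and 4.02 at day 0 and 4.00, 4.06, 4.41 and 4.18 at day 7. The groups overlapped in every comparison. The knockdown difference was -0.10 ± 0.13 at day 0 (limma adjusted p = 0.791) and 0.02 ± 0.12 at day 7 (adjusted p = 0.961), where the 95% confidence interval ran from -0.24 to 0.27. Over differentiation it was 0.16 ± 0.12 in control cells (adjusted p = 0.443) and 0.27 ± 0.12 in knockdown cells (adjusted p = 0.112). The probe set is dim, with a mean at the 28.0th percentile of genes, and its other probe set (1449033_at) averaged 1.41 to 1.55 by group, near the bottom of the scale, so a small change of a low transcript may not be visible.

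With so little variation in Tnfrsf11b, the log2 ratio of Tnfsf11 to Tnfrsf11b followed Tnfsf11. Relative to control, the ratio changed by -1.11 in knockdown cells at day 0 and by -2.72 at day 7. Over differentiation it changed by 2.83 in control cells and by 1.22 in knockdown cells. The arrays of the 2 groups did not overlap in any of these 4 comparisons. Only changes of the ratio are given, since levels of different probe sets cannot be set against each other, and the ratio carries the same choice of gene as Tnfsf11 itself.

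The 5 genes whose profiles lay closest to that of Tnfsf11 were Cda, which encodes cytidine deaminase, Il1rn, the interleukin 1 receptor antagonist, Trp63, a p53 family transcription factor, Fhl1, a LIM domain protein, and Gpr35, a G protein-coupled receptor. Closeness was the root mean square difference over the 14 arrays of log2 values centred on each gene's mean: 0.697 for Cda, 0.708 for Il1rn, 0.881 for Trp63, 0.904 for Fhl1 and 0.909 for Gpr35. Il1rn, for example, had group means of 4.93 in control and 3.62 in knockdown cells at day 0, and 7.83 and 5.50 at day 7. Its day 7 knockdown difference was -2.33 ± 0.53, with overlapping arrays. No bone lineage gene came near: Tnfrsf11b ranked 3752 of 18192 genes, Alpl 10844, Sp7 11457, Phex 17411 and Dmp1 18174. On this measure the distance of a level gene is set by the spread of Tnfsf11 itself. The ranks of Tnfrsf11b, Alpl and Sp7 therefore reflect mainly how little they varied. The 5 closest genes were chosen for likeness, so their differences are a description only.

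Sp7 and Alpl, an early transcription factor and an early enzyme of osteoblasts, were dim and nearly level. At day 0 Sp7 read 2.65, 3.11 and 2.50 in controls and 2.52, 2.70 and 2.59 with knockdown. At day 7 it read 2.61, 2.90, 2.54 and 2.71 in controls and 2.95, 2.78, 2.77 and 3.14 with knockdown. Its day 7 knockdown arrays all lay above its day 0 knockdown arrays, by 0.31 ± 0.15 (limma adjusted p = 0.129). Its mean stood at the 9.8th percentile of genes, where little can be read from such a difference. The knockdown difference of Sp7 was -0.15 ± 0.16 at day 0 (adjusted p = 0.723) and 0.22 ± 0.13 at day 7 (adjusted p = 0.365).

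At day 0 Alpl read 3.99, 4.20 and 3.79 in controls and 3.89, 4.19 and 4.36 with knockdown. At day 7 it read 4.42, 4.26, 4.04 and 4.18 in controls and 4.93, 4.89, 4.09 and 4.27 in knockdown cells, where replicates 1 and 2 stood apart from the others. All its comparisons overlapped. The knockdown difference was 0.15 ± 0.22 at day 0 (limma adjusted p = 0.814) and 0.32 ± 0.19 at day 7 (adjusted p = 0.346), with a 95% confidence interval at day 7 from -0.09 to 0.73. Over differentiation it was 0.23 ± 0.21 in control cells (adjusted p = 0.497) and 0.40 ± 0.21 in knockdown cells (adjusted p = 0.16), the latter becoming 0.55 with adjusted p = 0.0368 without replicate 3 of the day 7 knockdown group.

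Dmp1 fell strongly during differentiation and was lower in knockdown cells before it. On its brightest probe set (1443746_x_at), day 0 arrays read 11.94, 11.99 and 10.74 in controls and 9.36, 9.99 and 9.74 in knockdown cells. Day 7 arrays read 8.15, 8.16, 5.92 and 8.93 in controls and 7.90, 8.10, 7.22 and 7.51 in knockdown cells. The day 0 controls were the highest arrays of the series, the day 0 knockdown arrays came next without overlap, and the day 7 groups overlapped each other, with control replicate 3 lowest of all.

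In control cells Dmp1 fell by 3.77 ± 0.56 (SE) on the log2 scale, 13.6-fold (limma adjusted p = 0.000446). In knockdown cells it fell by 2.02 ± 0.56, 4.05-fold (adjusted p = 0.0128); this call was lost with replicates 1 and 2 averaged (adjusted p = 0.0834) and, narrowly, without replicate 2 of the day 0 knockdown group (adjusted p = 0.0504). The falls differed by 1.75 ± 0.79, which did not pass (adjusted p = 0.371). At day 0 the knockdown difference was -1.86 ± 0.60, or 27.6% of control, and did not pass on this probe set (adjusted p = 0.154). At day 7 it was -0.11 ± 0.52 (adjusted p = 0.935), with a 95% confidence interval from -1.24 to 1.02.

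Dmp1 has 2 other probe sets, and its day 0 knockdown difference passed on both. They were fitted with replicates 1 and 2 as separate arrays only. Among all 34945 probe sets with 1 gene symbol, 1426005_at gave -1.91 ± 0.34 (limma adjusted p = 0.0119) and 1443745_s_at gave -2.70 ± 0.59 (adjusted p = 0.0327), both without overlap. Over differentiation of control cells all 3 probe sets fell, by 2.27, 4.04 and 3.77 (adjusted p = 0.000287, 0.000266 and 0.000457 in this fit, the brightest probe set last). In differentiating knockdown cells 1443745_s_at fell by 1.70 (adjusted p = 0.0289), while 1426005_at differed by -0.33 (adjusted p = 0.477), starting there from a mean of 3.59. The suffixes _s_at and _x_at mark probes that can match other sequences, and 1426005_at carries no such mark. At day 0 the readings of RNA integrity also parted the groups: the log2 difference between 3' and 5' control probe sets was 3.54 ± 0.22 (SD, n = 3) in control and 2.98 ± 0.25 in knockdown arrays for beta-actin, and 2.18 ± 0.22 against 1.77 ± 0.16 for Gapdh. An exact two-sided permutation test gave p = 0.1 for each, the smallest that 3 against 3 arrays allow, and adjusted p = 0.3 over the 6 such tests. For the transferrin receptor, the means were 3.08 ± 0.10 and 2.73 ± 1.28 (exact permutation p = 0.7). The part of RNA integrity in the day 0 differences was not tested.

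**Figure D2:**
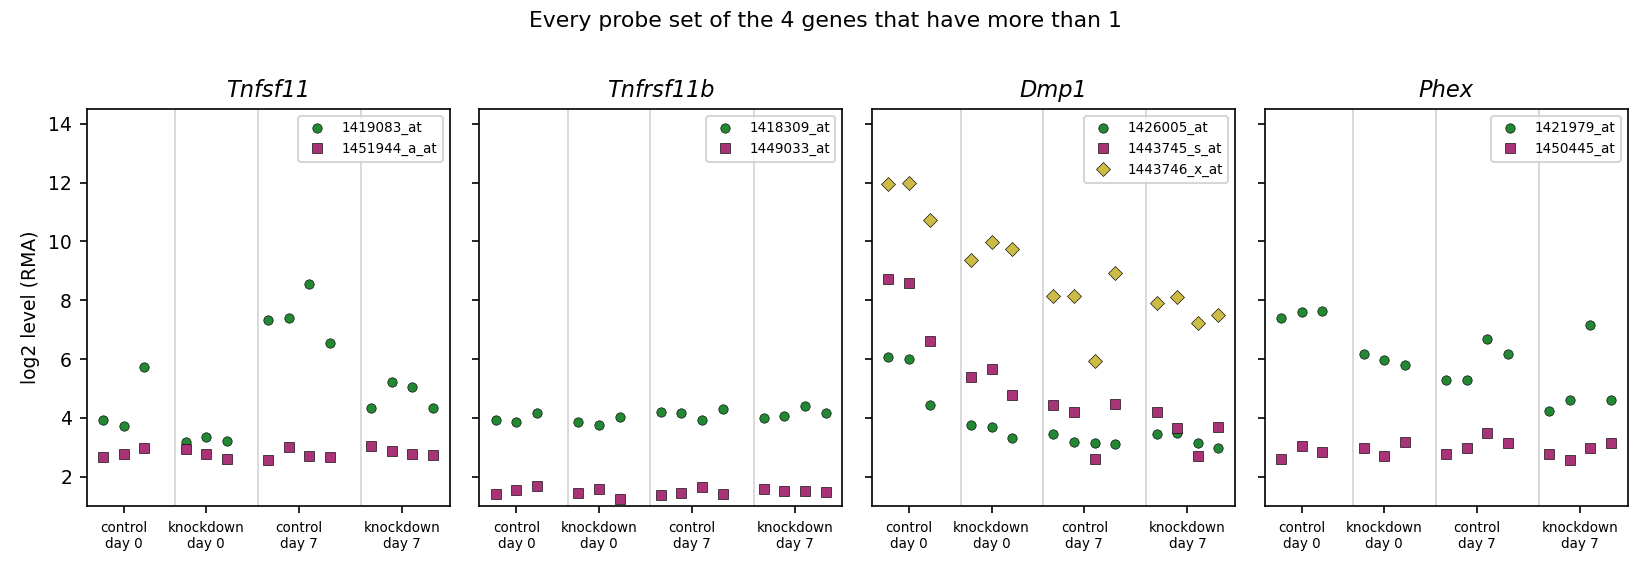
Log2 level (y axis) of every probe set of Tnfsf11, Tnfrsf11b, Dmp1 and Phex on each array, in replicate order within the 4 groups (x axis); colours and symbols mark probe sets. The 3 Dmp1 probe sets are all highest in day 0 controls, while the dimmer probe sets of Tnfsf11 and Phex lie flat between 2 and 4.

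Phex was also highest in day 0 controls. They read 7.39, 7.61 and 7.65, against 6.16, 5.98 and 5.81 in day 0 knockdown cells. Day 7 arrays read 5.28, 5.29, 6.68 and 6.16 in controls and 4.22, 4.61, 7.17 and 4.60 in knockdown cells. The day 0 groups were tight and well apart, while at day 7 replicate 3 was the highest array in both groups.

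The day 0 knockdown difference of Phex was -1.57 ± 0.61 (SE; 33.8% of control) and did not pass (limma adjusted p = 0.237). The wide spread at day 7 enters this error, since all groups share 1 estimate. The difference passed in 3 of 25 alternatives and not in the other 22, where the limma adjusted p reached 0.709. With the replicate number as a block within each day, chosen after seeing the data, the adjusted p was 0.0434. With only the day 0 arrays fitted it was 0.00653, and without replicate 3 of the day 7 knockdown group it was 0.0253. Over differentiation of control cells the difference was -1.70 ± 0.57, without overlap (limma adjusted p = 0.0501). It passed in 9 of 25 alternatives and not in the other 16, where the adjusted p reached 0.271. Among those that passed, the block within each day gave adjusted p = 0.00521 and the block across days 0.0452. In knockdown cells the difference over differentiation was -0.83 ± 0.57 (adjusted p = 0.306). At day 7 the knockdown difference was -0.70 ± 0.53 (adjusted p = 0.482), lower in 3 of 4 pairs and higher by 0.50 in replicate 3. Without knockdown replicate 3 the day 7 difference became -1.37 (adjusted p = 0.00957) and the difference over differentiation of knockdown cells -1.51 (adjusted p = 0.00215). The other Phex probe set (1450445_at), near the bottom of the scale, gave no call: its knockdown difference was 0.12 ± 0.20 at day 0 (adjusted p = 0.841) and its difference in differentiating control cells 0.26 ± 0.19 (adjusted p = 0.393).

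Counted over the 5 measured bone lineage genes other than Tnfsf11, knockdown at day 0 changed 0 of 5 at an adjusted p under 0.05 in limma, where 1.80% of all genes were called. At an unadjusted p under 0.05 there were 2 of 5, both lower, against 15.4% of all genes, and these 2 (Dmp1 and Phex) were also those without overlap, against 15.7% of all genes without overlap and lower. At day 7, 0 of 5 were called (6.58% of all genes) and 0 at an unadjusted p under 0.05 (23.5%), with all 5 overlapping (13.0% of all genes did not overlap). In differentiating control cells 1 of 5, Dmp1, was called (22.9% of all genes), with 2 of 5 at an unadjusted p under 0.05 (33.3%) and the same 2, Dmp1 and Phex, without overlap and lower (18.6%). In knockdown cells it was again 1 of 5, Dmp1 (35.8% of all genes), with 2 of 5 unadjusted (Dmp1 and Tnfrsf11b; 43.0%), 1 without overlap and lower (Dmp1; 18.0% of all genes) and 1 without overlap and higher (Sp7; 21.3%). The difference between the knockdown effects of the 2 days was called for 0 of 5 (0.0220% of all genes), with 1 of 5 at an unadjusted p under 0.05 (13.2%).

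**Figure D3:**
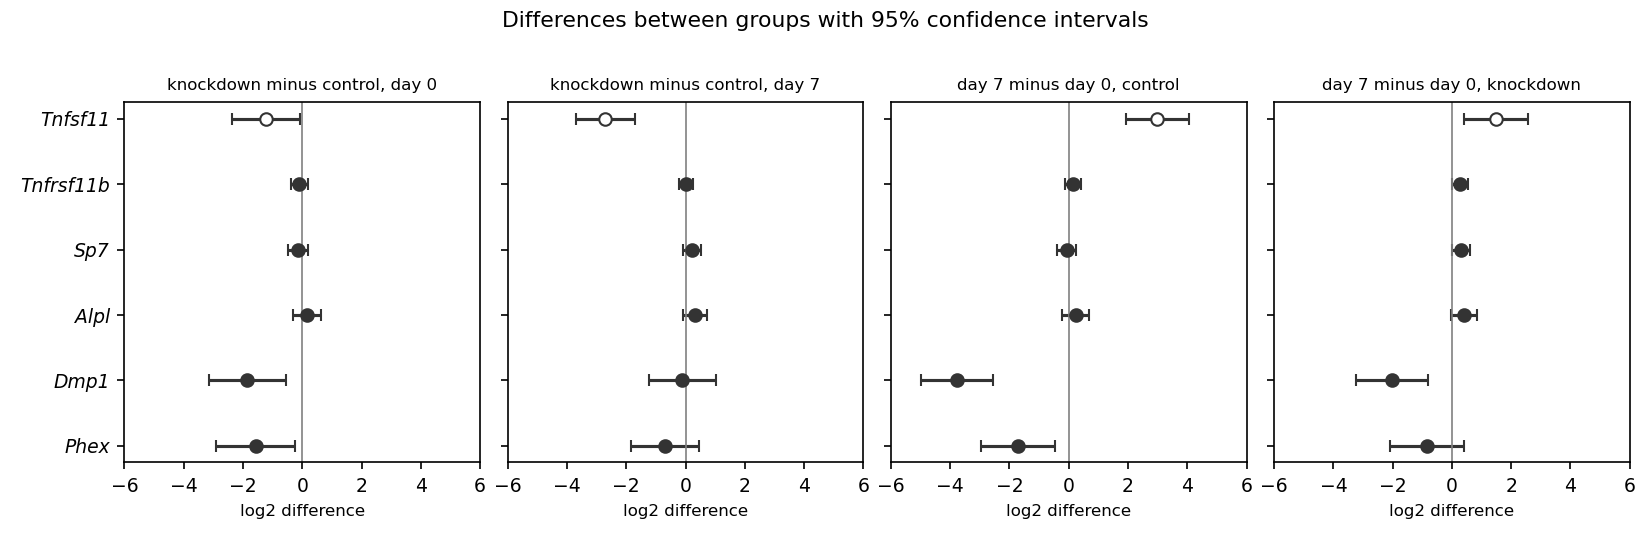
Log2 difference (x axis) with its 95% confidence interval for the 6 genes in the 2 knockdown and the 2 differentiation comparisons. Open circles mark Tnfsf11, whose values chose it, so that no test applies. Its intervals describe only the spread among arrays, and their distance from 0 is not a test. The intervals are not adjusted for the number of genes tested. Those of Dmp1 lie below 0 in both differentiation panels and in the day 0 knockdown panel. Those of Phex lie below 0 in the day 0 knockdown and control differentiation panels. Those of Tnfrsf11b, the narrowest, stay within -0.39 and 0.54, and lie above 0 only in the knockdown differentiation panel. After adjustment only the 2 Dmp1 differences over differentiation passed.

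Among 13 measured genes of the RANKL pathway (receptor, adaptors, transcription factors, cofactors and sheddases), 1 was called at day 0 (1.80% of all genes were), 1 at day 7 (6.58%) and 3 in differentiating control cells (22.9%). At day 0, 1 was higher in knockdown cells and 0 lower: Lgr4, a receptor known to bind RANKL as well as R-spondins, by 0.69 ± 0.12 (limma adjusted p = 0.0156; 0.225 with replicates 1 and 2 averaged). At day 7, 0 were higher and 1 lower: Mmp14, a membrane protease known to shed RANKL, by -0.64 ± 0.16 (adjusted p = 0.0309; 0.206 with the averaging); with the replicate block within day 2 were lower. Over differentiation of control cells 2 rose and 1 fell: Mmp14 by -1.65 ± 0.17 (adjusted p = 3.40e-05), Lgr4 by 0.58 ± 0.11 (adjusted p = 0.00285) and the kinase gene Map3k7 by 0.26 ± 0.08 (adjusted p = 0.0411; 0.0512 with the replicate block within day). Averaging replicates 1 and 2 left 1 rising and 1 falling over differentiation. The list's median difference was -0.04 at day 0, 0.05 at day 7 and -0.13 over differentiation of control cells. Over all genes it was -0.05, -0.02 and -0.01.

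Among 15 measured genes of the signals that are known to induce RANKL (vitamin D, parathyroid hormone, prostaglandin E2, glucocorticoid and gp130 cytokines), 0 passed at day 0 in limma, where 1.80% of all genes did (4 at an unadjusted p under 0.05, against 15.4%). The largest differences there were those of the cytokine genes Lif (-1.08 ± 0.55, limma adjusted p = 0.383) and Il6 (-0.98 ± 0.67, adjusted p = 0.544). With the replicate block within day, 2 of the 15 passed, both lower. At day 7, 3 of the 15 were above the control mean in knockdown cells; 1 passed higher and 2 lower (6.58% of all genes were called), with 9 of 15 at an unadjusted p under 0.05 (23.5% of all genes). The prostaglandin E2 receptor gene Ptger2 rose by 1.44 ± 0.23 (adjusted p = 0.00553), the vitamin D receptor gene Vdr fell by 1.14 ± 0.29 (adjusted p = 0.0355), and the LIF receptor gene Lifr fell by 0.69 ± 0.17 (adjusted p = 0.0369). With the replicate block within day 1 was higher and 4 lower. At day 7 Vdr averaged 10.13 ± 0.31 (SD, n = 4) in controls and 8.99 ± 0.64 with knockdown, against 9.53 and 9.63 at day 0. Ptger2 was dim, averaging 3.47 in day 7 controls and 4.91 with knockdown.

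Differentiation of control cells raised 2 of these 15 and lowered 2, where 22.9% of all genes were called. Ptger4, the other prostaglandin E2 receptor listed, fell by 2.34 ± 0.60 (limma adjusted p = 0.0133) while Ptger2 rose by 0.91 ± 0.25 (adjusted p = 0.0199), so that the pair moved in opposite directions; with the averaging of replicates 1 and 2 neither passed (adjusted p = 0.17 and 0.138). The median of the list was -0.14 at day 0, -0.24 at day 7 and -0.17 over differentiation of control cells. With replicates 1 and 2 averaged none of the day 7 calls held (adjusted p = 0.0548 for Ptger2, 0.234 for Vdr and 0.206 for Lifr).

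Of the osteoblast transcription factors other than Runx2 and Sp7 (15 measured), 0 passed in limma at day 0, against 1.80% of all genes (3 at an unadjusted p under 0.05, against 15.4%), where Foxc2 was lowest (-0.69 ± 0.18, limma adjusted p = 0.0811) and Msx1 stood at 0.50 ± 0.16 (adjusted p = 0.153). At day 7, 5 of the 15 had an unadjusted p under 0.05 (23.5% of all genes), and 1 passed, higher, against 6.58% of all genes called: Lef1, a nuclear partner of beta-catenin, by 0.69 ± 0.19 (adjusted p = 0.04996), which the replicate block took to 0.0538. With that block 1 other gene was lower, and within day 1 was higher and 2 lower. Averaging replicates 1 and 2 left 0 of the 15 passing at day 7. In differentiating control cells, where 22.9% of all genes were called, 2 rose, Fosl1 by 1.77 ± 0.29 (adjusted p = 0.000835) and Zbtb16 by 1.03 ± 0.20 (adjusted p = 0.00289), and 2 fell, Cbfb, the partner subunit of RUNX proteins, by 0.46 (adjusted p = 0.00284) and Twist1 by 0.43 (adjusted p = 0.00464); with replicates 1 and 2 averaged the falls did not pass (adjusted p = 0.0614 and 0.0664). The medians were 0.02, 0.06 and -0.12.

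Of the bone matrix and mineralisation genes (17 measured), 0 rose and 10 fell in differentiating control cells, where 22.9% of all genes were called in either direction. The list had a median of -0.46 against -0.01 over all genes. The small proteoglycan gene Ogn fell by 2.38 ± 0.42 (limma adjusted p = 0.00151), the phosphate transporter gene Slc20a1 by 1.75 ± 0.17 (adjusted p = 3.12e-05), the secreted kinase gene Fam20c by 1.48 ± 0.17 (adjusted p = 7.37e-05) and Mgp, an inhibitor of mineralisation, by 1.31 ± 0.22 (adjusted p = 0.00102). With replicates 1 and 2 averaged 5 of the 17 fell, and with arrays shifted to 1 median 8 fell and 1 rose. Many of these genes, such as the type I collagen genes, are made by fibroblasts in general.

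Knockdown changed 0 of the 17 matrix genes at day 0 in limma, against 1.80% of all genes (3 at an unadjusted p under 0.05, against 15.4%). At day 7, 4 of the 17 were above the control mean, 8 had an unadjusted p under 0.05 (23.5% of all genes), and 2 passed, both lower, against 6.58% of all genes called: Ogn, which differed by -2.04 ± 0.39 (limma adjusted p = 0.0124; 0.136 with replicates 1 and 2 averaged), and Ifitm5, an osteoblast membrane protein gene, by -0.60 ± 0.15 (adjusted p = 0.0362; 0.206 with the averaging). With the replicate block 3 were lower and 1 higher, and with the block within day 5 lower and 1 higher. Ogn averaged 12.92 ± 0.15 (SD, n = 3) and 12.77 ± 0.26 in control and knockdown cells at day 0, and 10.54 ± 0.84 (SD, n = 4) and 8.50 ± 0.70 at day 7, again with no overlap at day 7. The medians of the list were -0.14 at day 0 and -0.21 at day 7.

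Osteocyte genes (11 measured) are the nearest in role to Dmp1 and Phex. In limma 0 passed with knockdown at either day, against 1.80% and 6.58% of all genes (1 at day 0 and 2 at day 7 at an unadjusted p under 0.05, against 15.4% and 23.5%; 1 passed, lower, at day 7 with the replicate block within day), with medians of -0.01 and -0.11, and the largest differences were those of Capg at day 0 (-0.39 ± 0.23, limma adjusted p = 0.469) and Pdpn at day 7 (-0.55 ± 0.23, adjusted p = 0.168). With differentiation of control cells, where 22.9% of all genes were called, 1 fell, Pdpn, which encodes podoplanin (-0.79 ± 0.25, adjusted p = 0.0358; 0.253 with replicates 1 and 2 averaged), and 0 rose; with the block within day 2 fell. Dmp1 lies on chromosome 5 in RefSeq gene order between Dspp and Ibsp, with Mepe next and Spp1 after it, a cluster of genes for acidic mineral-binding proteins. Its measured neighbours were not called: in differentiating control cells Ibsp differed by -0.23 (adjusted p = 0.221), Mepe by 0.00 (adjusted p = 0.99) and Dspp by 0.31 (adjusted p = 0.427), all dim, with means of 4.40, 3.91 and 2.41.

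Osteoclast genes (10 measured) were listed among markers of other cell types. With knockdown, 1 was called at day 0 (1.80% of all genes) and 0 at day 7 (6.58%). The day 0 call was the proton pump subunit gene Atp6v0d2 (-1.30 ± 0.22, limma adjusted p = 0.0141, or 0.196 with replicates 1 and 2 averaged). At day 7, 1 of the 10 had an unadjusted p under 0.05, against 23.5% of all genes. With the replicate block within day, 1 passed there, lower. Over differentiation of control cells 5 of the 10 fell, where 22.9% of all genes were called, among them the protease genes Mmp9 (-2.29 ± 0.42, adjusted p = 0.0018) and Ctsk (-1.86 ± 0.30, adjusted p = 0.00081), both also expressed by fibroblasts. Averaging replicates 1 and 2 left 4 of the 10 falling. The mean level of the osteoclast genes per array at day 0 ran from 5.98 to 6.11 in controls and from 5.76 to 6.02 with knockdown. At day 7 it ran from 5.22 to 5.34 in controls and from 4.999 to 5.46 with knockdown. The 10 macrophage markers share Csf1r with the RANKL pathway list. Of these and of the 11 chondrocyte markers, 0 passed in limma in either knockdown comparison or in differentiating control cells. Of all genes, 1.80% passed at day 0, 6.58% at day 7 and 22.9% in differentiating control cells. At an unadjusted p under 0.05 there were at most 1 macrophage and 2 chondrocyte markers. The shares of all genes were 15.4%, 23.5% and 33.3% in the same order. With the replicate block within day, 1 chondrocyte marker was lower at day 7 and 1 in differentiating control cells. Of the 7 lymphocyte markers, 1 passed, Cd79a in differentiating control cells (-0.49 ± 0.16, limma adjusted p = 0.0423), and the replicate block took it to 0.0746.

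Adipocyte markers (10 measured) stood beside the day 7 Tnfsf11 difference as follows. Their mean level per array at day 7 was 8.94 to 10.34 in controls and 9.85 to 10.90 with knockdown, and 6.53 to 7.24 and 6.60 to 7.60 at day 0. At day 7, 9 of the 10 were above control in knockdown cells, with a median difference of 1.04. In limma 0 passed, against 6.58% of all genes, and 5 had an unadjusted p under 0.05, against 23.5%. The largest difference was that of Cidec, a lipid droplet protein gene (2.20 ± 0.69, limma adjusted p = 0.0744). With the replicate block 3 passed, all higher, and with the block within day 5. Of these markers at day 0, 0 passed, against 1.80% of all genes, or 1 with the block within day. At an unadjusted p under 0.05 there were 2 at day 0, against 15.4%. Of the 8 preadipocyte markers 1 was lower in day 7 knockdown cells, Pdgfra, which encodes a platelet-derived growth factor receptor (-0.49 ± 0.13, adjusted p = 0.0436; 0.0682 with arrays shifted to 1 median). Under the replicate block 2 were lower. Tnfsf11 was thus higher with differentiation in cells whose adipocyte markers rose, and lower at day 7 in the group whose adipocyte markers averaged higher. The part of the extent of differentiation in the Tnfsf11 difference was not tested.

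**Figure D4:**
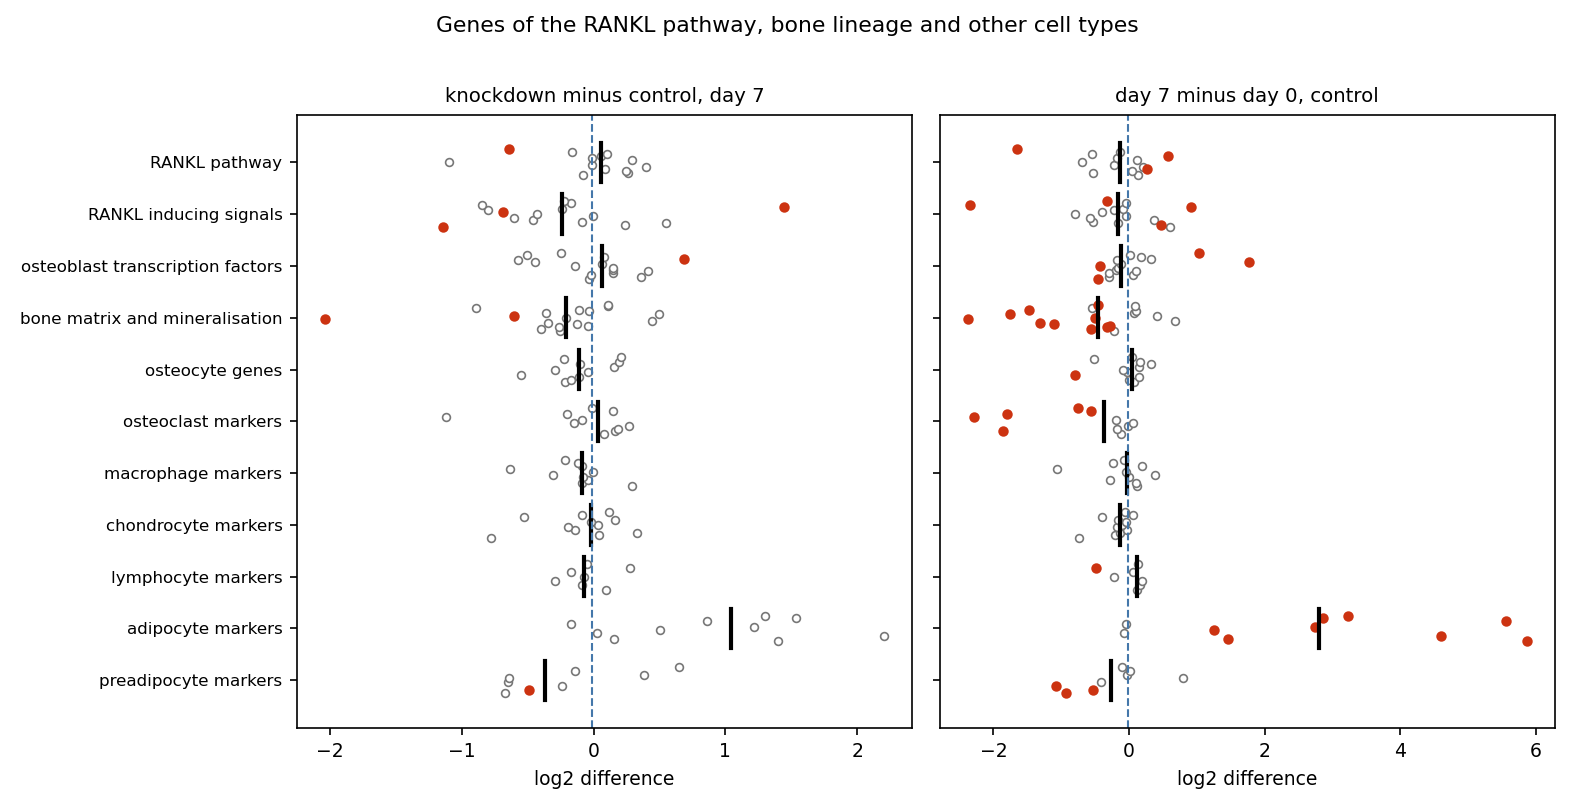
Log2 difference (x axis) of each measured gene of 11 lists (y axis), for knockdown against control at day 7 and for day 7 against day 0 in control cells; filled red circles passed at an adjusted p under 0.05, black bars are list medians and the dashed line is the median of all genes. Bone matrix genes have a median of -0.46 over differentiation and adipocyte markers 2.80.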

How the data were processed

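The authors deposited 1 log2 expression value per probe set and array, made with RMA (background correction, quantile normalization and summary of probes) and the affy package per the submitters' processing notes; no version is stated in the labels. Values between 1.13 and 14.37 gave the log base. RMA compresses changes of dim genes, and with 3 or 4 arrays a group the errors are wide.

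Of 45101 probe sets, 64 were control probe sets and left out of the tests, 34945 had 1 gene symbol in the platform annotation, 932 had several and 9160 are unnamed here. The brightest probe set, by its mean over 14 arrays, stood for each of 18193 genes. All arrays entered 1 model with a mean per group (limma 3.58.1, R 4.3.3, lmFit and eBayes), with Benjamini-Hochberg adjustment over all genes and a threshold of 0.05. Errors of differences are the SE of this fit. The fit was tested on simulated data. Tnfsf11 was left out of every test, also at day 0, where a test had been planned, since the arrays of that day entered its choice. The genes and the 11 further lists (138 entries, 127 measured) were chosen with earlier results of these data known. From each list, genes past the threshold were named, at most 4 per comparison by size, or the largest differences where none passed.

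Replicate numbers come from the labels. Deviations of same-numbered arrays from their group means correlated within each day (0.187 to 0.331 over 3 pairs at day 0, 0.389 to 0.59 over 4 pairs at day 7). Arrays numbered 1 and 2 correlated as much across numbers at day 7 (0.467 and 0.487). At day 0, control 2 with knockdown 1 gave 0.148, and control 1 with knockdown 2 gave 0.076. Within a day every same-numbered pair lay above 0.1, but that mark does not tell numbers 1 and 2 apart. The numbers were still taken to pair the arrays, and a fit with the number as a block was run beside the unblocked one. The plain replicate block also ties the 2 days. Across days, same-numbered arrays of a genotype correlated by 0.032 to 0.210. Only knockdown replicate 3, at 0.032, lay below 0.1.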

Additional observations from a re-analysis of the deposited data

Results flagged for a closer look

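Of 12 groups of 4 arrays checked, 2 for each of the 6 genes, 1 held an array far from the others: Phex in day 7 knockdown cells read 7.17 in replicate 3, against 4.22 to 4.61 in replicates 1, 2 and 4. Chance marks about 1 in 20 such groups. In day 7 controls replicate 3 was also the highest array for Phex, at 6.68.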

How the results depend on the processing

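The day 7 difference of Tnfsf11, whose sign its choice fixes, ranged from -3.02 to -1.29 over 24 alternatives, the last with all probe sets averaged, which also gave 1.46 for differentiation of control cells and -0.67 for the difference between days. The fall of Dmp1 in differentiating control cells passed under all 25 alternatives run (adjusted p = 0.000122 to 0.0234). At day 0 the count of changed genes went from 0 to 1 with all probe sets averaged (Dmp1, -2.16, adjusted p = 0.0324), with only the groups compared (Phex) and, among alternatives chosen after seeing the data, with probe sets without a letter suffix (Dmp1, -1.91, adjusted p = 0.0142) and with the replicate block within day (Phex). Leaving out 1 array at a time gave 0 to 1 (1 without control replicate 3 at day 7, where Dmp1 had adjusted p = 0.0211, and without knockdown replicate 3 at day 7). At day 7 it gave 0 to 1. In differentiating control cells the count went from 1 to 2, through Phex, with the replicate block, the block within day, the probe set of largest interquartile range, without the dimmest 40% of genes, with only the groups compared and with an intensity trend; leaving out 1 array gave 1 to 2. In knockdown cells it was 0 with replicates 1 and 2 averaged and 0 with probe sets without a suffix (Dmp1, -0.33, adjusted p = 0.483), and leaving out 1 array gave 0 to 3. The count for the difference between days was 0 under all 24 alternatives.

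Signs turned only for differences that did not pass: at day 0, with arrays shifted to 1 median, Tnfrsf11b to 0.0609 and Sp7 to 0.0136; at day 7 Dmp1 to 0.0349 with unsuffixed probe sets; and for the difference between days Alpl to -0.0210 with replicates averaged and Tnfrsf11b to -0.0262 with the shifted median. Leaving out 1 array gave ranges across 0 for Sp7 at day 0 (-0.274 to 0.0272) and in differentiating control cells (-0.188 to 0.114), and at day 7 for Dmp1 (-0.733 to 0.270) and Tnfrsf11b (-0.0675 to 0.07). The causes were not tested.

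The balance of higher and lower calls at day 0 turned with scaling: 85 were higher and 243 lower, against 262 and 111 with arrays shifted to 1 median, which moved the median of all genes from -0.05 to 0.11. Averaging replicates 1 and 2 took the genes called from 328 to 24 at day 0, from 1197 to 64 at day 7 and from 4162 to 1584 in differentiating control cells, and from 6506 to 4098 in knockdown cells. The replicate block took these 4 counts to 572, 1850, 4584 and 7051, and the block within day to 844, 2680, 5186 and 7399. With only the groups compared they were 207, 333, 3752 and 5717. Among the bone lineage genes the block changed no call but those of Phex. The filter on dim genes removed Tnfsf11, Tnfrsf11b, Sp7 and Alpl, which therefore have no value under it, and a fit of only the groups compared does not exist for the difference between days.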

Other observations

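Differentiation of knockdown cells gave calls in further genes of the lists. In these cells 35.8% of all genes were called. Of the 13 RANKL pathway genes 2 rose and 2 fell: Nfatc1, the transcription factor downstream of RANK in osteoclasts, rose by 0.94 ± 0.26 (limma adjusted p = 0.0131), Map3k7 rose by 0.54 ± 0.08 (adjusted p = 0.000254), Mmp14 fell by 2.56 ± 0.17 (adjusted p = 7.74e-07) and Csf1, which encodes the macrophage growth factor that acts beside RANKL, fell by 1.59 ± 0.42 (adjusted p = 0.01). Of the 15 genes of RANKL-inducing signals 3 rose and 4 fell, among them Ptger2 (2.11 ± 0.25, adjusted p = 3.74e-05), the parathyroid hormone receptor gene Pth1r (1.00 ± 0.23, adjusted p = 0.00388), Ptger4 (-3.06 ± 0.60, adjusted p = 0.0014) and the gp130 gene Il6st (-1.01 ± 0.23, adjusted p = 0.00412). With replicates 1 and 2 averaged, Nfatc1 (adjusted p = 0.111), Csf1 (0.126) and Il6st (0.0648) no longer passed.

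Of the 17 bone matrix genes 1 rose and 11 fell in differentiating knockdown cells, with a median of -0.50; Ogn fell by 4.27 ± 0.42 (limma adjusted p = 9.00e-06) and Lox, which cross-links collagen, by 1.56 ± 0.33 (adjusted p = 0.00233). Averaging replicates 1 and 2 left 0 of the 17 rising and 8 falling. Of the 11 chondrocyte markers 1 rose, Sox6 (0.68 ± 0.18, limma adjusted p = 0.00813), and 4 fell, among them the cartilage transcription factor gene Sox9 (-1.36 ± 0.28, adjusted p = 0.00204). With replicates 1 and 2 averaged Sox6 no longer passed (adjusted p = 0.0575). The difference between control and knockdown cells over differentiation was called by limma for 0 genes in each of the 11 lists, against 0.0220% of all genes. At an unadjusted p under 0.05 there were 0 to 5 genes of a list, against 13.2% of all genes.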
